A study of Abies pinsapo with 12 samples.

Results

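The cellulose synthase transcripts of Spanish fir (Abies pinsapo) described here are ap_86459, annotated by the study as a cellulose synthase, and ap_88208, annotated as cellulose synthase-5. They are 2 of the 76481 assembled transcripts in the count table, and 2 of the 23352 that passed the filter of at least 2 CPM (counts of a transcript per 1000000 counts of its library) in at least 2 libraries. The pair was chosen by the study's own comparison of bluish with green trees on these same 12 libraries, so the levels by needle colour, and the counts of calls on that contrast, are given as a description and test nothing about either transcript. The study asked how trees with bluish needles differ from trees with green needles. Needles came from 6 bluish and 6 green adult trees growing in the field in the Sierra de las Nieves (Spain), with 1 library for each tree. Developing needles were left out at sampling in both groups. The trees were not treated, the study gives the same age for trees of both colours, their genotypes are not given in the sources used here, and the extraction text of the labels speaks of pine seedling roots although the tissue of every library is given as needles.

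Cellulose synthases are glycosyltransferases of the plasma membrane. They work together in large complexes, take glucose from UDP-glucose and join it into the long glucan chains that pack side by side into the cellulose microfibrils of the cell wall. In Arabidopsis, separate members of the family serve the primary wall, which is laid down while a cell expands, and the secondary wall, which thickens cells after expansion has ended. The annotation of the fir transcripts as synthases does not say which kind of wall either of them serves.

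Totals lay between 66111176 and 79064155 counts in bluish libraries and between 64978939 and 91973481 counts in green libraries, and scaling factors lay between 0.958 and 1.04. A limit of 3 read pairs corresponded to between 0.0681 and 0.0904 CPM. The RuBisCO small subunit transcripts ap_2598 and ap_81338, taken here as needle markers, were above this limit in all 12 libraries. Their lowest values were 7.62 and 5.57 CPM, and whether they are the main small subunit transcripts of the needle was not examined. They averaged 18.6 ± 9.34 CPM (ap_2598) and 12.6 ± 6.32 CPM (ap_81338) in the bluish trees, against 12.2 ± 4.28 CPM and 8.77 ± 3.10 CPM in the green trees (SD, n = 6 each). Their log2 differences of 0.61 (SE 0.31) and 0.52 (SE 0.30) had the same sign as those of the synthases, 0 of the 2 were called by the quasi-likelihood test of edgeR, by DESeq2 or by an exact test with 1 common dispersion (0 at an unadjusted p below 0.05), and their part in the levels of the synthases was not tested. The RuBisCO small subunit transcript that the study names, ap_72505, has a green alga as best match and ran the other way. It averaged 0.611 ± 0.229 CPM in the bluish and 5.28 ± 5.64 CPM in the green trees, a log2 difference of -3.11 (SE 0.60). The study reported it as lower in bluish trees, also by RT-qPCR. No genome, transcript length or sequence of the assembly was used here, so levels are compared between trees and not between the 2 transcripts, and reads shared with near-identical synthase transcripts of the assembly cannot be told apart.

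ap_86459 was detected in every tree and tended to be higher in bluish needles, with 1 green tree standing among the bluish ones. In bluish trees 1 to 6 its level was 6.40, 4.74, 10.4, 4.70, 6.38 and 7.59 CPM, from 429, 357, 727, 313, 515 and 537 counts. In green trees 1 to 6 its level was 3.50, 7.98, 2.50, 1.90, 2.75 and 1.42 CPM, from 276, 703, 184, 157, 237 and 94 counts. Bluish tree 3 had the highest level of all 12 trees and green tree 2 the next, and the other 5 green trees all lay below the lowest bluish tree. The groups therefore overlapped through green tree 2 alone.

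The mean of ap_86459 was 6.70 ± 2.12 CPM in the bluish and 3.34 ± 2.38 CPM in the green trees (SD, n = 6 each), with medians of 6.39 CPM in the bluish and 2.63 CPM in the green trees. The fitted difference of bluish over green was 1.00 on the log2 scale with a standard error (SE) of 0.37, a fold of 2.00 that runs from 1.55 to 2.59 within 1 SE. The study kept differences above 1 on the log2 scale, so this transcript stood almost exactly on that minimum. Leaving out each tree in turn gave between 0.83 (without bluish tree 3) and 1.47 (without green tree 2), and 6 of the 12 values were above 1. The position of ap_86459 relative to the minimum therefore changed with single trees, while its direction stayed the same in all 12.

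ap_88208 showed a different pattern, with very low levels in some green trees. In bluish trees 1 to 6 its level was 9.08, 4.62, 8.58, 5.36, 2.42 and 2.64 CPM, from 609, 348, 601, 357, 195 and 187 counts. In green trees 1 to 6 its level was 0.0381, 0.159, 2.81, 5.57, 0.0813 and 4.19 CPM, from 3, 14, 207, 461, 7 and 278 counts. Green trees 1, 2 and 5 were near or under the limit of 3 read pairs, whereas green trees 3, 4 and 6 lay within the range of the bluish trees. Between the lowest of the other 9 trees, bluish tree 5, and the highest of these 3, green tree 2, there was a 15.2-fold gap.

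The counting intervals of the low green trees did not reach those of any other tree. The 95% interval was 0.00274 to 0.163 CPM in green tree 1, 0.0639 to 0.327 CPM in green tree 2 and 0.0196 to 0.221 CPM in green tree 5, against 1.96 to 2.94 CPM in bluish tree 5. These exact Poisson intervals take 2 counts as 1 read pair and cover counting error only. The totals of green trees 1, 2 and 5 were 79674487, 91973481 and 86353450 counts, those of green trees 2 and 5 being the largest of all 12. At this depth the upper bound in each of these 3 green trees lay under the lower bound in every other tree.

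**Figure D1:**
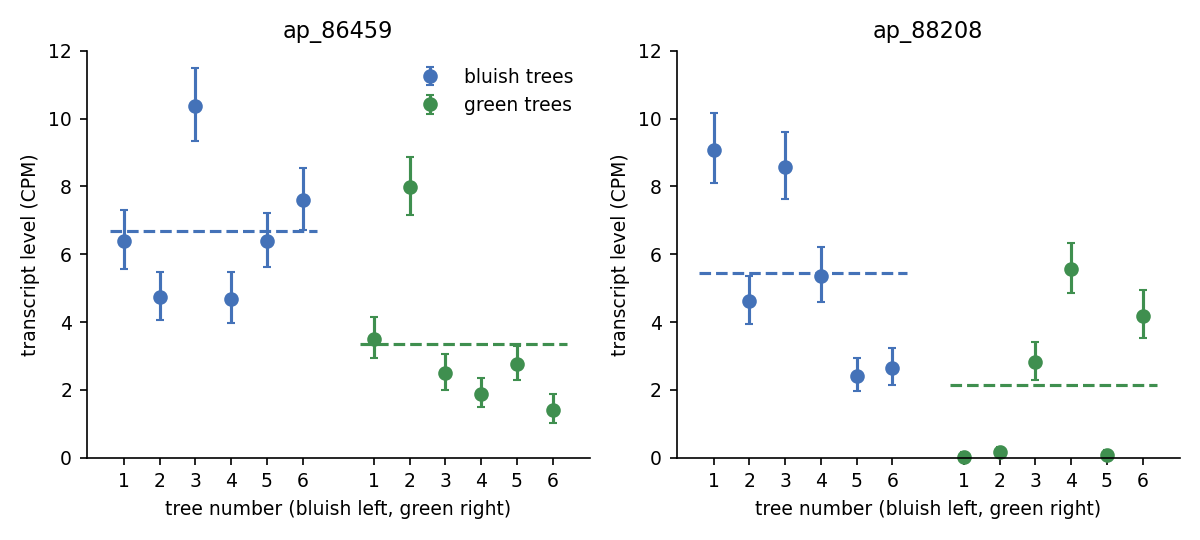
Level of ap_86459 (left panel) and ap_88208 (right panel) in CPM, by tree, with bluish trees on the left and green trees on the right of each panel. Points are single libraries, bars are 95% counting intervals and dashed lines are group means. For ap_86459 green tree 2 stands at 7.98 CPM among the bluish trees, and for ap_88208 green trees 1, 2 and 5 lie at or below 0.159 CPM.

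The mean of ap_88208 was 5.45 ± 2.86 CPM in the bluish and 2.14 ± 2.41 CPM in the green trees (SD, n = 6 each), with medians of 4.99 CPM in the bluish and 1.48 CPM in the green trees. No green tree lay near that green median, which falls in the gap between the 2 sets of green trees. The fitted difference was 1.35 on the log2 scale with an SE of 0.93, a fold of 2.55 that runs from 1.34 to 4.85 within 1 SE. Leaving out each tree in turn gave between 1.09 (without green tree 1) and 1.91 (without green tree 4), above 1 in all 12 cases. Although its fitted difference was the larger of the pair, its SE was also the larger.

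In order of level, neighbouring trees often did not differ beyond their counting intervals. For ap_86459, bluish tree 3 stood clear of green tree 2, and bluish tree 5 stood clear of bluish tree 2, while every other pair of neighbours had overlapping intervals. For ap_88208, the 2 highest trees, bluish 1 and bluish 3, stood clear of green tree 4, and a further step separated green tree 6 from green tree 3. Bluish trees 5 and 6, at 2.42 and 2.64 CPM, were thus level with green tree 3 at 2.81 CPM. Counting error is only part of the spread between trees, and sampling a tree again was not part of the design.

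**Figure D2:**
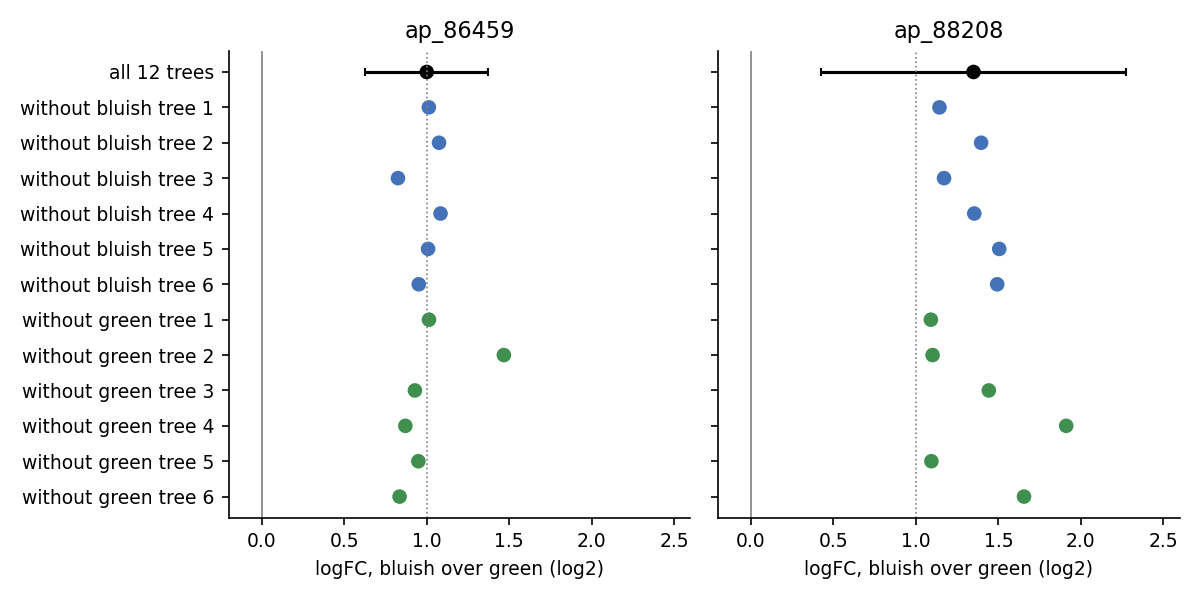
Fitted difference of bluish over green (log2, horizontal axis) for ap_86459 (left panel) and ap_88208 (right panel), with all 12 trees (black, bar of 1 SE) and with each tree left out in turn. The dotted line marks 1. Values run from 0.83 to 1.47 for ap_86459 and from 1.09 to 1.91 for ap_88208.

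Across all transcripts, the quasi-likelihood test of edgeR at a Benjamini-Hochberg adjusted p below 0.05 and a difference above 1 on the log2 scale called 1 of 23352 transcripts, a share of 0.00428%, and 0 of the 2 synthase transcripts. An unadjusted p below 0.05 was reached by 1478 transcripts, 6.33% of those tested. DESeq2 called 22 transcripts and 0 of the 2. With edgeR's exact test and 1 common dispersion for all transcripts, 457 transcripts were called, a share of 1.96%, of which 173 were higher in bluish and 284 higher in green trees, and 2 of the 2 synthase transcripts were among them. The 2 transcripts were selected on this contrast, so these counts describe how the call depends on the estimate of spread. Of all tested transcripts, 45 had bluish and green trees that did not overlap in level, a share of 0.193%, and 0 of the 2 synthase transcripts did.

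The spread between trees of the same colour was wide for both transcripts. The biological coefficient of variation, edgeR's estimate of the relative spread between trees once counting error is set aside, was 0.454 for ap_86459 and 1.06 for ap_88208. Transcripts of similar mean level had a median of 0.247 for the range around ap_86459 (3868 transcripts) and of 0.275 for the range around ap_88208 (3650 transcripts). The 2 values stood at the percentiles 90.9 and 98.3 of these sets. Choosing transcripts by the size of their difference favours those of wide spread, while these sets were not chosen so. The percentiles of spread given here and below are therefore a description. A common dispersion gives such transcripts the same spread as all others.

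Relative to the mean, the spread was wider in green than in bluish trees for both. In CPM, the SD of ap_88208 was larger in bluish (2.86) than in green trees (2.41), while that of ap_86459 was 2.12 in bluish and 2.38 in green trees. The lower green means, which came with the choice of the pair, raise the coefficient of variation in green trees. The coefficient of variation of ap_86459 was 31.6% in bluish trees, at the percentile 78.6 of transcripts of similar level, and 71.3% in green trees, at the percentile 95.9. For ap_88208 it was 52.4% in bluish trees, at the percentile 91.5, and 112% in green trees, at the percentile 98.3. The highest and lowest trees differed 2.21-fold in bluish and 5.63-fold in green trees for ap_86459, and 3.76-fold in bluish trees for ap_88208. No test of this difference in spread was made.

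**Figure D3:**
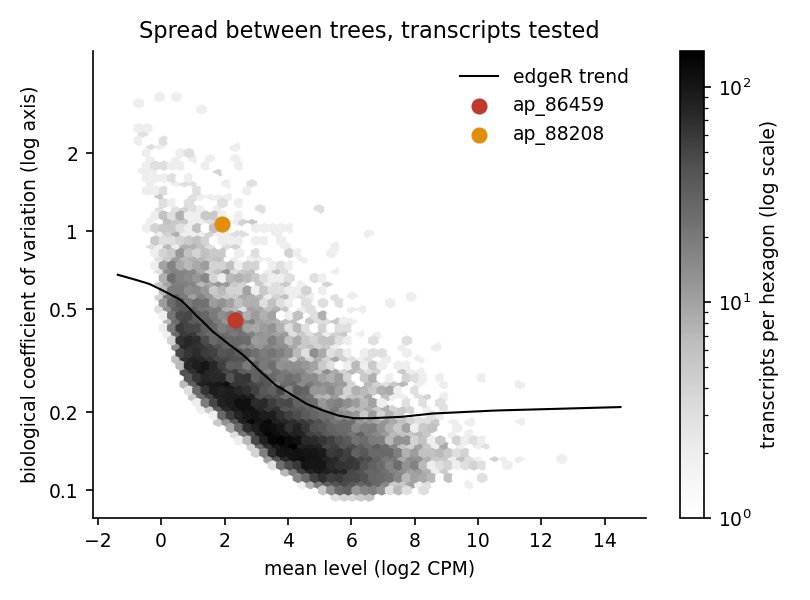
Biological coefficient of variation (vertical, log axis) against mean level (log2 CPM) for the 23352 transcripts tested, with darker hexagons holding more transcripts (log colour scale) and edgeR's trend as a line. ap_86459 at 0.454 and ap_88208 at 1.06 both lie above the trend.

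Trees with next to no transcript were uncommon at the level of ap_88208. Taking 0.2 CPM as a limit, which was set after its values were seen, 86 of the 3650 transcripts of similar mean had any tree below it, or 2.36%, and 627 of all 23352 tested did, or 2.68%. There were 11 tested transcripts with 3 green trees and 0 bluish trees below 0.2 CPM. ap_88208 was the 1 transcript for which these were exactly green trees 1, 2 and 5. Because the limit was set from its own values, this is a description only, and ap_91092, described below, split the same green trees at higher levels. ap_86459 had 0 trees below that limit.

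Shared variation of the 2 synthase transcripts from tree to tree was not detectable among bluish trees. In green trees the set of 3 that was low in ap_88208 was the set that was higher in ap_86459, clearly so only in green tree 2. Among the bluish trees, Pearson's r of log2(CPM + 0.5) was 0.20 (exact permutation p = 0.683, two-sided, n = 6) and Spearman's rho was 0.20 (exact permutation p = 0.714). Without the 2 trees farthest from the median of ap_86459, r was -0.30 over 4 trees, so the small positive value rested on those trees. In green trees, the 3 trees lowest in ap_88208 had the higher levels of ap_86459, at 3.50, 7.98 and 2.75 CPM in trees 1, 2 and 5, against 2.50, 1.90 and 1.42 CPM in trees 3, 4 and 6. The counting intervals of green trees 1 (2.94 to 4.14 CPM) and 5 (2.28 to 3.30 CPM) overlapped that of green tree 3 (2.01 to 3.06 CPM). Only green tree 2 stood clear of every tree in the other set, and this split was not tested. Because the green trees fell into 2 separate sets of 3 for ap_88208, no correlation over the green trees or over all 12 trees is given as a result.

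The share of ap_88208 in the summed CPM of both transcripts therefore moved widely in green trees. It was 58.7, 49.4, 45.3, 53.3, 27.5 and 25.8% in bluish trees 1 to 6, and 1.08, 1.95, 52.9, 74.6, 2.87 and 74.7% in green trees 1 to 6. The share was lower in bluish trees 5 and 6 than in bluish trees 1 to 4. Green trees 1, 2 and 5 lay below the bluish range, green trees 4 and 6 above it and green tree 3 inside it. A share set from CPM is not per length, so only its change between trees can be read.

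The summed level of the pair was 15.5, 9.36, 19.0, 10.1, 8.79 and 10.2 CPM in bluish trees 1 to 6, and 3.54, 8.14, 5.31, 7.46, 2.83 and 5.61 CPM in green trees 1 to 6. Its mean was 12.1 ± 4.11 CPM in the bluish and 5.48 ± 2.09 CPM in the green trees (SD, n = 6 each). The lowest bluish tree, 5, at 8.79 CPM, lay narrowly above the highest green tree, 2, at 8.14 CPM, so the sums did not overlap in level, unlike either transcript alone. No counting interval was computed for the sums, so this gap was not set against counting error. How often sums of other pairs separate the colours was not computed either. Both transcripts were picked for being higher in bluish trees, which fixes the direction of their sum, so the sum carries no test.

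**Figure D4:**
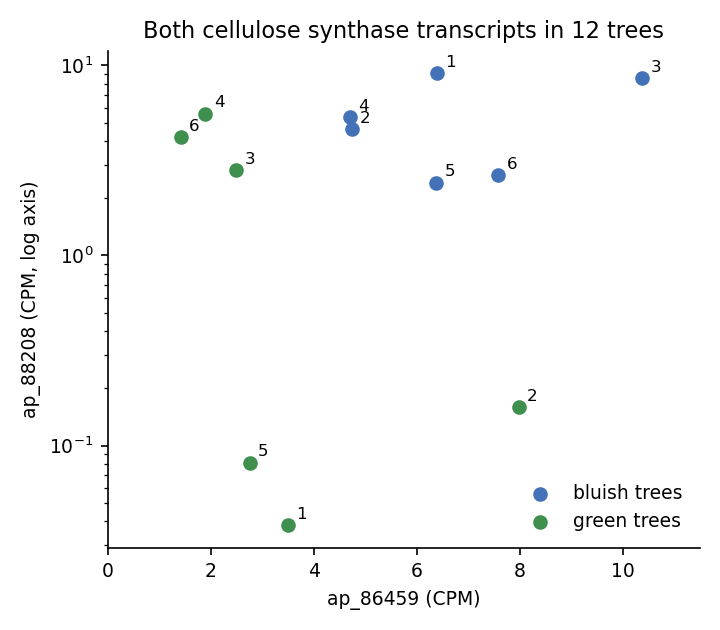
Level of ap_88208 (CPM, vertical log axis) against ap_86459 (CPM, horizontal axis) in 6 bluish and 6 green trees, each point a library labelled with its tree number. Green trees 1, 2 and 5 lie at the bottom with ap_86459 between 2.75 and 7.98 CPM, and green trees 3, 4 and 6 lie at the upper left with ap_86459 between 1.42 and 2.50 CPM.

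Of 4 other transcripts with cellulose-related names in the study's table, ap_86421 had tree levels resembling those of ap_86459, a relation that did not pass the adjustment for the number of relations. ap_86421, named as cellulose synthase-like protein H1-like, had 2.64, 3.20, 5.48, 3.93, 3.50 and 2.90 CPM in bluish trees 1 to 6, and 2.08, 4.32, 2.36, 0.966, 1.08 and 1.02 CPM in green trees 1 to 6. It was highest in bluish tree 3 and next in green tree 2, the same 2 trees that led for ap_86459. Within colours, ap_86459 and ap_86421 had an r of 0.80 (exact permutation p = 0.00889, n = 12; adjusted p = 0.338 over 38 p-values of 19 relations) and a rho of 0.37 (exact permutation p = 0.274). The r was 0.69 over 10 trees without the 2 farthest from the median of ap_86459. The relation was added after the levels had been seen.

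The r of ap_86459 was 0.32 with ap_7449, -0.21 with ap_90101 and -0.42 with ap_81674 (exact permutation tests, n = 12, each adjusted p = 0.894). ap_7449, cellulose synthase-like A1, averaged 1.94 ± 0.776 CPM in the bluish and 1.37 ± 0.840 CPM in the green trees (SD, n = 6 each), with a log2 difference of 0.50 (SE 0.40). ap_90101, cellulose synthase-like protein D2, ran the other way, with 1.07 ± 0.384 CPM in the bluish and 1.91 ± 1.06 CPM in the green trees and a log2 difference of -0.83 (SE 0.38). ap_81674, named as COBRA-like, belongs to a family of membrane-anchored proteins at the cell surface, of which COBRA is required for oriented cellulose deposition in Arabidopsis, and had 1.37 ± 0.656 CPM in the bluish and 0.941 ± 1.11 CPM in the green trees. Its level was under 0.2 CPM in green trees 2, 4 and 5, of which trees 2 and 5 were also low in ap_88208 and tree 4 was the highest green tree of ap_88208. These 4 names came from a table ordered by the same contrast, and 0 of the 4 were called by the quasi-likelihood test, DESeq2 or the common-dispersion exact test, with 2 of 4 at an unadjusted p below 0.05, against 6.33% of all transcripts tested.

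The study also named 3 transcripts of wall loosening and remodelling as higher in bluish trees. These were the xyloglucan endotransglucosylases ap_2740 and ap_15570, enzymes that cut and rejoin the xyloglucan tethering cellulose, and the expansin ap_2687, which loosens the wall without cutting it. Their log2 differences were 1.22 (SE 1.17), 1.02 (SE 0.70) and 1.03 (SE 0.75), close to those of the synthases, and like the synthases they were chosen on this contrast. Their trees differed, since ap_2740 and ap_2687 were highest in bluish tree 2 and ap_15570 in bluish tree 5. Within colours, ap_86459 had an r of -0.12 with ap_2740, -0.11 with ap_15570 and -0.01 with ap_2687 (exact permutation p = 0.706, 0.748 and 0.974, n = 12, each adjusted p 0.894 or above). Among bluish trees, ap_88208 had an r of -0.36, -0.21 and -0.18 with the same 3 (exact permutation p = 0.468, 0.706 and 0.776, n = 6). Of the 19 relations computed for the 2 synthases, 0 passed after adjustment, and 1 of the 38 p-values was below 0.05 unadjusted.

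Wider lists give the levels of related transcripts, though the synthases were picked for a difference above 1 and hold their place beside these lists by that choice. Of 85 transcripts listed under cell wall terms in the shortened annotation table at hand, 40 were tested, 27 were higher in bluish trees and the median log2 difference was 0.07, against 0.00 over all transcripts tested, of which 50.1% were higher in bluish trees. Each of the quasi-likelihood test, DESeq2 and the common-dispersion exact test called 0 of the 40, and 1 (2.50%) had an unadjusted p below 0.05, against 6.33% of all transcripts tested. Of 57 transcripts listed under transfer of glycosyl groups, the activity to which cellulose synthases belong, 32 were tested, 13 were higher in bluish trees and the median was -0.04. Again 0 of 32 were called by any of these tests, with 1 (3.12%) at an unadjusted p below 0.05. The largest difference in the first list was 0.71 (ap_77550) and in the second 0.37 (ap_26992), while ap_6686, which stands in both lists, had the lowest at -0.42. In contrast, the 9 transcripts of the glycosyl transfer term that the study drew from its own list of higher transcripts, the 2 synthases among them, ran from 1.00 to 1.44, as that choice requires.

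**Figure D5:**
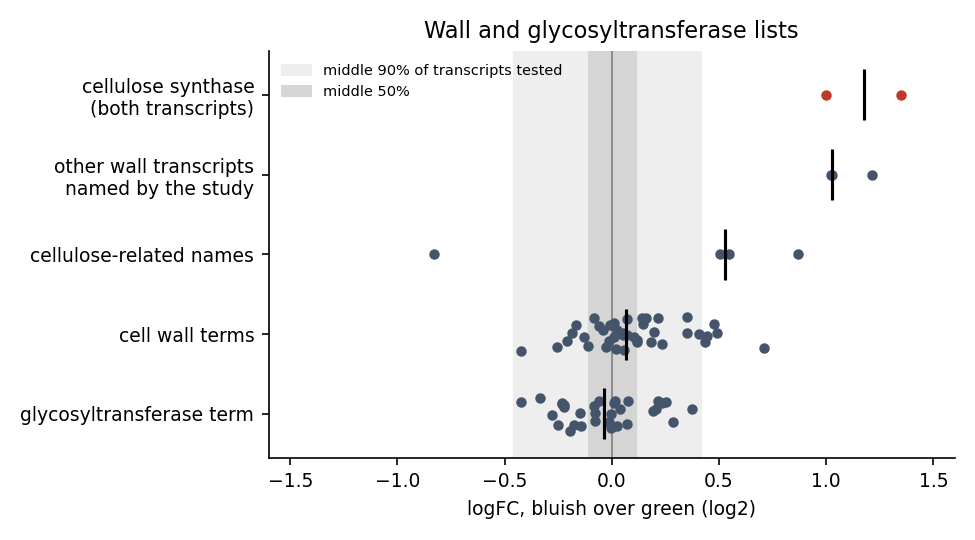
Difference of bluish over green (log2, horizontal axis) of single transcripts (points) in 5 lists, with the list median as a black line and the middle 50% and 90% of all tested transcripts in grey. The cell wall and glycosyltransferase terms end at 0.71 and 0.37, and the 2 synthases at 1.00 and 1.35 were chosen for values this high.

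The transcripts whose tree-to-tree pattern was most like that of each synthase were looked up across the table. Among 21236 transcripts with a mean of at least 2 CPM, the within-colour r of log2(CPM + 0.5) over the 12 trees with ap_86459 was highest for ap_8472 (0.91), ap_3878 (0.91), ap_23754 (0.90), ap_14901 (0.89) and ap_3488 (0.89), and lowest for ap_9845 (-0.94), ap_78891 (-0.93) and ap_12182 (-0.91). Of these 8, ap_78891 had the difference by colour farthest from 0, -0.53 on the log2 scale (SE 0.23). ap_8472 averaged 25.3 ± 2.95 CPM in the bluish and 27.7 ± 5.31 CPM in the green trees (SD, n = 6 each), and it too was highest in green tree 2, at 37.4 CPM.

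For ap_88208 the highest were ap_56291 (0.87), ap_83353 (0.87), ap_17282 (0.87), ap_91092 (0.83) and ap_11480 (0.83), and the lowest were ap_7772 (-0.93), ap_6407 (-0.89) and ap_85968 (-0.87). ap_91092 repeated the split of the green trees, with 2.48, 0.772 and 0.778 CPM in green trees 1, 2 and 5 and 14.2, 14.7 and 10.1 CPM in green trees 3, 4 and 6. In bluish trees 1 to 6 it had 12.1, 6.90, 5.31, 11.7, 5.68 and 10.2 CPM. ap_83353 was likewise lower in green trees 1 and 5, at 0.635 and 0.651 CPM, than in green trees 3, 4 and 6, at 2.72, 4.19 and 3.57 CPM. The split of the green trees was thus not confined to ap_88208. The fitted differences by colour were 0.27 (SE 0.66) for ap_91092 and 0.17 (SE 0.42) for ap_83353. That of ap_88208, 1.35 (SE 0.93), was larger, but ap_88208 was chosen for its difference by colour and the other 2 were not. All these r values are descriptions of 12 libraries that were the best of a large number compared, and those with ap_88208 follow mainly the 2 sets of green trees.

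Of 15 transcripts whose best match in the study's annotation was a green alga, 15 were tested and 14 were lower in bluish trees, with a median log2 difference of -1.27. The quasi-likelihood test called 0 of the 15 (9 at an unadjusted p below 0.05, against 6.33% of all transcripts tested). DESeq2 called 3 and the common-dispersion exact test 12. This list was picked for how its transcripts moved on this contrast, so its direction and calls are a description and test nothing. Whether these 15 transcripts come from another organism was not tested. Their summed level was 41.0, 25.5, 20.3, 38.3, 46.8 and 22.4 CPM in bluish trees 1 to 6 and 41.5, 54.1, 53.3, 204.8, 73.4 and 36.8 CPM in green trees 1 to 6, so the colours overlapped, and 1 of the 15 was at 0 in a bluish tree. Green tree 4, the highest in this sum, had 1.90 CPM of ap_86459 and 5.57 CPM of ap_88208, and without it the log2 differences were 0.87 for ap_86459 and 1.91 for ap_88208. Within colours, the r of ap_86459 with this sum was -0.26 (exact permutation p = 0.465, n = 12), and with the library total it was 0.62 (exact permutation p = 0.0756, adjusted p = 0.894), with green tree 2 the largest library. The part of either in the levels of the synthases was not tested beyond these values. In whole needles, fewer cells that transcribe a gene and less transcript per cell cannot be told apart.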

How the data were processed

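Whole-number counts per assembled transcript were deposited by the authors as 1 table of 12 libraries. According to the study's methods, paired-end reads were trimmed, mapped with BWA to a transcriptome assembled from A. pinsapo reads, and counted per transcript. The reads of a pair appear to have been counted separately, because 76.0% of counts from 1 to 29 were even, so intervals and limits take 2 counts as 1 read pair. Counts from 30 to 999 were even in 57.7% of cases, and 5 of the 21 values of the synthases in that range were.

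The filter required 2 CPM or more in 2 or more libraries and kept 98.7 to 99.3% of the counts of each library. Bluish and green trees were compared with edgeR 4.0.16 (R 4.3.3, limma 3.58.1) by the quasi-likelihood test on counts with TMM factors, at a Benjamini-Hochberg adjusted p below 0.05 and a log2 difference above 1, as the study's thresholds. The study names edgeR but no dispersion estimate. Of the settings run here, only the exact test with 1 common dispersion gave the total that the study reported, 457 transcripts. That match is of totals only. DESeq2 1.42.0, edgeR's exact and likelihood ratio tests, other filters, other scalings, a replicate block and the removal of each tree were alternatives. CPM are TMM-scaled. On simulated counts of 23352 transcripts, the test recovered 97 of 100 changes of 2 and 99 of 100 changes of 3 on the log2 scale, with 2 unchanged transcripts called. No change as small as those of the synthases, 1.00 and 1.35, was simulated. Recovery at their size and spread is therefore not known.

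Tree numbers are shared by both colours in the labels, but same-numbered trees deviated together with r from -0.17 to 0.11, over 0.1 in 1 of 6 pairs, so the numbers were not taken to pair the trees. No library was a copy of another. Replicates are separate trees. Relations were tested on log2(CPM + 0.5) by Pearson's r and Spearman's rho over all orders within a colour, two-sided, with colour means subtracted where both colours entered. As the green trees form 2 sets for ap_88208, its tested relations were limited to bluish trees (the search for like transcripts used all 12 trees as a description), which departs from the planned within-colour test, and the relations with the 4 cellulose-related names were added after the data were seen.

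The transcripts and lists were chosen with earlier results of these data known. Transcripts named beyond the synthases are the other wall transcripts the study names, the cellulose-related names, the 5 highest and 3 lowest correlates of each synthase with a mean of at least 2 CPM, and the extremes of the 2 annotation lists. Transcripts of similar level lay within 0.5 on the log2 CPM scale of the synthase. Annotation lists were read from a shortened table, so no set test was run. Fold changes and p-values of the authors were not used.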

Additional observations from a re-analysis of the deposited data

Results flagged for a closer look

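The level of ap_86459 in green tree 2, 7.98 CPM, stood apart from the other green trees, which lay between 1.42 and 3.50 CPM. Its gap to the nearest green tree made up 0.682 of the range of the group, above Dixon's 95% critical value for 6 samples. Of the 4 groups examined (2 transcripts in 2 colours) this was the 1 that passed, and chance alone passes about 1 in 20 groups if levels are normally distributed. The criterion was applied to CPM without logarithm, and whether the flag holds on the log2 scale was not examined. Green tree 2 was the largest library, with 91973481 counts, and its level of ap_88208 was 0.159 CPM. The 2 sets of green trees for ap_88208 do not meet this criterion, with a value of 0.249, because no single tree stands apart there.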

How the results depend on the processing

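The log2 difference of both synthases stayed positive under every alternative run. It moved by more than 1 SE for ap_86459 without green tree 2 (1.47, against 1.00 with SE 0.37). For ap_88208 it did so with the replicate block (2.68, against 1.35 with SE 0.93). Across 10 alternatives of scaling, filter, tool, test and dispersion it ran from 0.99 to 1.02 for ap_86459 and from 1.31 to 1.40 for ap_88208, so ap_86459 crossed the minimum of 1 with scaling, filter and tool. With tree number as a replicate block it was 1.20 for ap_86459 and 2.68 for ap_88208, while tree numbers were not found to pair the trees. The quasi-likelihood test called 1 transcript. The count was 3 with filterByExpr, 22 with DESeq2, 457 with the exact test and a common dispersion, 13 with the exact test and transcript-wise dispersions, 15 with the likelihood ratio test, 0 with the replicate block (1428 at an unadjusted p below 0.05), and from 1 to 2 with each tree left out, 2 without bluish tree 4 or green tree 6. Both synthases (2) were called by the exact test with a common dispersion and 0 under the other alternatives. The planned within-colour correlation of the pair was r = -0.54 (exact permutation p = 0.140, n = 12), and r = -0.62 with the replicate block. It ran from -0.68 (without bluish tree 3, exact permutation p = 0.0467) to -0.43 with each tree left out, and was -0.12 on CPM without logarithm and -0.20 without the 2 trees farthest from the median of ap_86459. It mixes the 2 sets of green trees and is therefore not given as a result. Depth limits the 3 lowest values of ap_88208, from 3, 7 and 14 counts.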

Other observations

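The transcript ap_76368, one of the 9 glycosyl transfer transcripts the study drew from its own list, reached 132.3 CPM in bluish tree 6 and 0.0265 CPM in its lowest library, a far wider span than either synthase. Its log2 difference was 1.44 with an SE of 1.87.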
